A study of Mus musculus with 6 samples.

Results

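The genes described here are 10 components of the machinery that tells the kinase complex mTORC1 whether amino acids are present: Mtor, Rptor, Rraga, Rragc, Rragd, Flcn, Castor1, Depdc5, Nprl2 and Sesn1. They were taken by mouse gene symbol, and all 10 were found among the 55487 genes that each file lists. They were read in 6 libraries of polyadenylated RNA, 3 from wild-type mice (WT) and 3 from mice lacking Brm on both alleles (BrmKO, written Brm-/- in the design), all on the background the labels give as C56Bl/6. Brm is the older name of Smarca2, an ATPase that drives SWI/SNF chromatin remodelling. The cells were LSK cells, marrow cells of femur and tibia without lineage markers and with c-KIT and SCA1 on their surface, among which are the blood stem cells and early progenitors. The age and sex of the mice, the part of Brm that was removed, and whether it was missing from all cells or only from some are not stated in the labels.

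mTORC1 is a kinase complex on the lysosome surface that promotes protein synthesis and holds back autophagy when nutrients are plentiful. Amino acids act through the Rag GTPases, which work as a heterodimer of RagA or RagB with RagC or RagD and bring mTORC1 to the lysosome. GATOR1 turns the RagA or RagB side off, GATOR2 opposes GATOR1, the cytosolic sensors CASTOR1 (arginine) and the sestrins (leucine) act on GATOR2, and folliculin acts on the RagC or RagD side. In blood stem cells, mTORC1 activity is linked to the exit from quiescence. These are mostly signals between proteins, and RNA levels do not measure mTORC1 activity.

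Libraries held 28.01 to 36.46 M reads in genes. Smarca2, the targeted gene, had 174, 213 and 150 CPM (reads scaled to a common library size) in the WT libraries and 26.9, 26.5 and 27.9 CPM in the BrmKO libraries, so each library matched its label. Kit, Cd34 and Flt3, genes of blood progenitors, stood at 467 CPM or more in every library, while Ly6a, which encodes SCA1, was read at only 18.7 to 31.1 CPM in the WT libraries. Both libraries numbered 3 stood apart, with 8.41% (WT) and 9.29% (BrmKO) of reads outside genes against 5.79% to 6.61% in the other 4. By chi-square per degree of freedom they were closer to each other (20.9) than either was to a library of its own genotype (32.5 to 49.3). Platelet and megakaryocyte markers summed to 634 to 860 CPM in WT and 418 to 587 CPM in BrmKO, over 6 genes. Itga2b made up most of that sum, and its genotypes overlapped (340 to 569 and 258 to 414 CPM). Pf4 of the same list was called lower in BrmKO (edgeR adjusted p = 0.0391). Monocyte and macrophage markers summed to 171 to 248 CPM in WT and 139 to 171 CPM in BrmKO. In libraries of whole cell populations, fewer cells of a type and less RNA per cell cannot be told apart.

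No difference between the genotypes was detected for any member. Of the 10 genes, 9 had enough reads to be tested, and of these 0 were higher and 0 lower in BrmKO at an adjusted p under 0.05 (edgeR quasi-likelihood test, Benjamini-Hochberg over 15691 genes). The same test called 22 genes in all, 0.14% of those tested, 0.0829% higher and 0.0574% lower, and a count of 0 among 9 is near that background. None of the 9 had an unadjusted p under 0.05 in edgeR either, against 5.85% of all tested genes, and DESeq2 and limma-voom each called 0. The CPM values of the genotypes overlapped for all 9. They did not overlap for 11.1% of all genes (5.69% higher and 5.37% lower in BrmKO), and 0 among 9 is near that share too. The median log2 fold change of the 9 was -0.01, as it was over all genes tested, with 4 above 0 and 5 below.

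**Figure D1:**
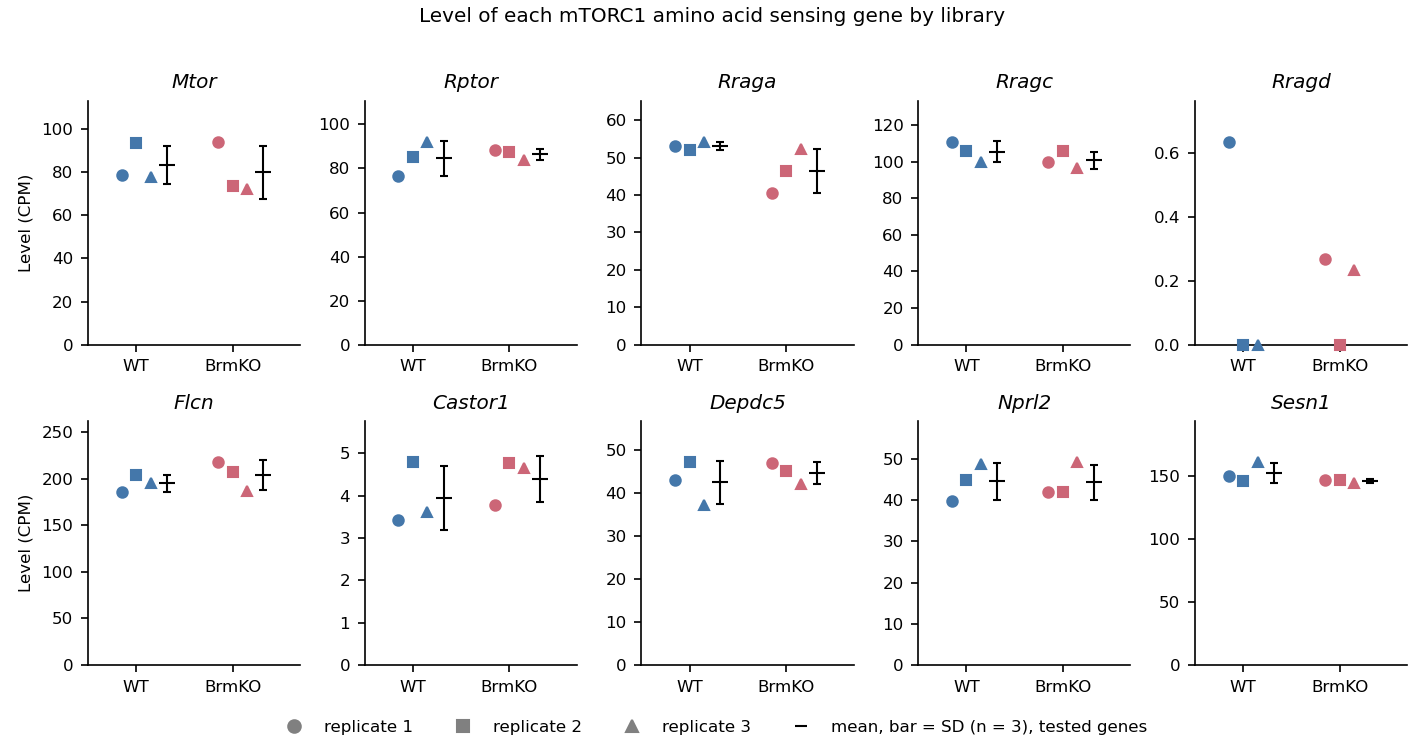
Level in CPM (vertical axis, from 0, a separate scale for each gene) of the 10 genes in the 3 WT and 3 BrmKO libraries, with 1 symbol per replicate; the black mark and bar are the mean and SD of the 9 tested genes. The genotypes overlap in every panel, and Rragd stays below 0.7 CPM.

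The kinase and its substrate-binding partner are described first. Mtor (ENSMUSG00000028991.15, chr4:148448611-148557683, plus strand) encodes the kinase itself, which also works in the second complex, mTORC2. It had 78.5, 93.6 and 78.0 CPM in WT and 94.2, 73.6 and 72.2 CPM in BrmKO. The highest and the lowest of these 6 values were both in BrmKO libraries. Its log2 fold change was -0.06 ± 0.13 (SE, edgeR adjusted p = 0.999). Rptor (ENSMUSG00000025583.15, chr11:119602905-119899576, plus strand) encodes raptor, the subunit that defines mTORC1 and presents its substrates. It had 76.5, 85.0 and 92.2 CPM in WT and 88.3, 87.5 and 83.7 CPM in BrmKO, all 3 BrmKO values lying inside the WT range. Raptor RNA differed by 0.03 ± 0.09 (log2, edgeR adjusted p = 0.999). Per kilobase of exon, Mtor was at 8.25 ± 0.874 CPM per kb in WT (SD, n = 3), Rptor at 6.28 ± 0.582 and Mlst8, the small subunit that binds the kinase domain, at 7.71.

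The Rag GTPases gave the clearest contrast among the members, and it lay between genes rather than between genotypes. Rragc (ENSMUSG00000028646.16, chr4:123917446-123936997, plus strand) encodes RagC. It had 111, 106 and 99.6 CPM in WT and 99.9, 106 and 96.8 CPM in BrmKO, with a log2 fold change of -0.06 ± 0.08 (edgeR adjusted p = 0.999). Rragd (ENSMUSG00000028278.14, chr4:32983037-33022180, plus strand), which encodes the interchangeable partner RagD, was almost unread. It had 23, 0 and 0 reads in WT and 8, 0 and 8 reads in BrmKO, or 0.635, 0, 0, 0.267, 0 and 0.233 CPM, and it was the 1 member too low to be tested. With 3 reads as the limit that a count of 0 allows, the libraries without a read could hold up to 0.0923, 0.105 and 0.105 CPM, a limit for counting error only. Reads were thus found in some libraries of both genotypes, and no fold is given.

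The WT library with the most Rragd, replicate 1, was also the one with the most RNA of stromal and endothelial marker genes. That match was not particular to this list. The same library was highest in summed monocyte and macrophage markers (248 CPM) and in T and NK markers (260 CPM, of which Nkg7 was 258). The 7 stromal and endothelial genes, each read in at least 1 library, summed to 209, 74.8 and 43.0 CPM in WT. In BrmKO they summed to 44.8, 20.9 and 97.6 CPM, and 58 CPM of the last was Col1a1. The order did not match throughout: WT replicate 2, at 74.8 CPM, had 0 Rragd reads and BrmKO replicate 1, at 44.8 CPM, had 8. The part of any of these cell types in the Rragd reads was not tested. RagC made up 99.6% to 100% of the length-scaled reads of the pair Rragc and Rragd in the 6 libraries, 99.9 ± 0.213% in WT and 99.9 ± 0.095% in BrmKO (SD, n = 3).

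The paired genes also differ in the sequence before their starts. The 250 bases before the RefSeq start of Rragc and of Rragd (GRCm38.p6) are shown, with every CG dinucleotide in capitals, because 1 of the paralogues is well read in these cells and the other nearly silent. Rraga, the other well-read Rag gene of chromosome 4, is shown beside them.
Rragc, chr4:123917183-123917432, plus strand: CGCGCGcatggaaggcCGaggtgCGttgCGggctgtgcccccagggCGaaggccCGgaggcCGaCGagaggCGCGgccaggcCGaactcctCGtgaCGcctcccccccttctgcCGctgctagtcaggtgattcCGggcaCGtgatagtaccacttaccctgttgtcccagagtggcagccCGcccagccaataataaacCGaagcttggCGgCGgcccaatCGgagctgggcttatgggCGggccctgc
Rragd, chr4:32982748-32982997, plus strand: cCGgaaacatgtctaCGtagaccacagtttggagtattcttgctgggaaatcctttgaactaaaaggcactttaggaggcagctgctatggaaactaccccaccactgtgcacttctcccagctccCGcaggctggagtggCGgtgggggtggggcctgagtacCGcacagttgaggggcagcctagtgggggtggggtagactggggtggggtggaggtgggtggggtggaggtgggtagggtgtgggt
Rraga, chr4:86575423-86575672, plus strand: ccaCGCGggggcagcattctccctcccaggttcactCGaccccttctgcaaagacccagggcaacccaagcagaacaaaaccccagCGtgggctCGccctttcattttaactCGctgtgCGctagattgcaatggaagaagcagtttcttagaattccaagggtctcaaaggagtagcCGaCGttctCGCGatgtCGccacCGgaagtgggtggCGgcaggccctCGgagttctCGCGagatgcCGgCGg
The window of Rragc holds 24 CG dinucleotides and that of Rraga 19, while that of Rragd holds 5 despite a GC content of 59.6%. All 10 members matched the RefSeq table, with 11 windows since Sesn1 has a pair of starts, and the other 10 windows hold 9 to 24. The lowest of these, 9, is that of Flcn, the most abundant member, and of Rptor. The window of Castor1, the lowest of the tested members, holds 15. The median was 15 over the 13758 windows of genes tested here and 3 over the 19093 windows of other genes, and 20.1% of the former and 70.9% of the latter hold as few as that of Rragd. CACGTG, the E-box core that MYC and the TFEB family can bind, was searched on both strands and occurs in 6.02% of all 32851 windows. Among the members only the Rragc window holds it, 112 bases before the start. The longer form TCACGTGA, which contains CACGTG and is found in many lysosomal genes under TFEB, occurs in 0.785% of all windows and in 0 of the 11. These matches describe letters and not binding, and sequence outside the windows was not searched. A link between CG content and the level of these genes was not tested.

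Rraga (ENSMUSG00000070934.6, chr4:86575668-86577285, plus strand) encodes RagA, the partner that GATOR1 acts on. It had the smallest p of the members. Its level was 53.0, 52.1 and 54.3 CPM in WT and 40.5, 46.5 and 52.3 CPM in BrmKO, so that 2 of the 3 BrmKO libraries lay below every WT library and the third among them. The log2 fold change was -0.19 ± 0.11 (edgeR unadjusted p = 0.115, adjusted p = 0.95), ranking 1900 of 15691 genes by p. Without BrmKO replicate 3 it was -0.29 (unadjusted p = 0.0303, adjusted p = 0.609), which did not pass either, and without BrmKO replicate 1 it was -0.10. Over all alternatives its adjusted p was 0.468 or higher. The 3 genes whose log2 CPM followed that of Rraga most closely over the 6 libraries, of 9454 compared, were Fahd1 (Pearson r = 0.985), Cry2 (0.985) and Magt1 (0.982). Such values describe 6 points that share libraries, and 77 genes exceeded 0.9. Rragb, which encodes the alternative partner RagB, was at 19.7, 22.8 and 22.9 CPM in WT and 17.3, 22.0 and 18.5 CPM in BrmKO. RagA made up 77.3 ± 1.45% of the length-scaled reads of the pair in WT and 77.0 ± 2.55% in BrmKO (SD, n = 3).

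Flcn (ENSMUSG00000032633.12, chr11:59791408-59810016, minus strand) encodes folliculin, which switches RagC and RagD to the state that recruits mTORC1 and is needed for mTORC1 to hold TFEB and TFE3 in the cytoplasm. It was the most abundant member by either scale, at 186, 204 and 195 CPM in WT and 218, 207 and 187 CPM in BrmKO. Its highest values were in BrmKO replicates 1 and 2, but BrmKO replicate 3 was near the lowest WT library. Its log2 fold change came to 0.07 ± 0.09 (edgeR adjusted p = 0.999). Folliculin works with FNIP1 or FNIP2. Fnip1 averaged 21.4 ± 2.23 CPM in WT and 23.2 ± 3.58 CPM in BrmKO (SD, n = 3). Fnip2 had 12.6, 12.8 and 15.8 CPM in WT and 17.3, 14.2 and 23.2 CPM in BrmKO, and the difference of 0.41 ± 0.20 (log2) did not pass (edgeR adjusted p = 0.874). The Fnip2 values of the genotypes overlapped, as BrmKO replicate 2 lay below WT replicate 3. Without BrmKO replicate 3 the median log2 fold change of Fnip1 and Fnip2 was 0.10, against 0.27 with all libraries, and 1 of them lay below 0.

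GATOR1 is the brake on RagA and RagB. Depdc5 (ENSMUSG00000037426.18, chr5:32863701-32994236, plus strand) encodes the subunit that contacts the Rag GTPases. It had 43.0, 47.2 and 37.2 CPM in WT and 47.0, 45.0 and 42.0 CPM in BrmKO, with a log2 fold change of 0.07 ± 0.11 (edgeR adjusted p = 0.999). Nprl2 (ENSMUSG00000010057.8, chr9:107542226-107545706, plus strand) encodes the subunit with the GTPase-activating residue. It had 39.8, 45.0 and 48.9 CPM in WT and 41.9, 41.9 and 49.3 CPM in BrmKO, differing by -0.01 ± 0.12 (log2, edgeR adjusted p = 0.999). Its highest value in each genotype was in the library numbered 3, where the Depdc5 level was lowest in each genotype. Those are the libraries with the most reads outside genes, and the part of that share in these values was not tested. Without both of them the log2 fold change was -0.02 for Nprl2 and 0.03 for Depdc5. Per kilobase of exon in WT, Nprl2 was at 22.1 ± 2.27 CPM per kb, Nprl3, the third subunit, at 7.61 and Depdc5 at 3.61 ± 0.425 (SD, n = 3).

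Of the sensors, Sesn1 (ENSMUSG00000038332.13, chr10:41809935-41908424, plus strand) encodes sestrin 1, a leucine-responsive inhibitor of GATOR2 and a known p53 and FOXO target. It varied least, relative to its mean, of the tested members in BrmKO, with 150, 146 and 161 CPM in WT and 147, 147 and 144 CPM in BrmKO. The genotypes differed by -0.06 ± 0.08 (log2, edgeR adjusted p = 0.999). Of the sestrin family, Sesn1 was at 38.2 ± 1.94 CPM per kb of exon in WT (SD, n = 3), Sesn2 at 8.62 and Sesn3 at 0.625. Sesn1 made up 80.5 ± 0.457% of the length-scaled sestrin reads in WT and 78.6 ± 2.61% in BrmKO (SD, n = 3), with the lowest share, 75.8%, in BrmKO replicate 1, where Sesn2 was highest at 38.7 CPM.

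Castor1 (ENSMUSG00000020424.3, chr11:4218225-4222409, plus strand) encodes the arginine sensor CASTOR1, which holds GATOR2 back when arginine is scarce. It had 124, 156 and 103 reads in WT and 113, 137 and 160 reads in BrmKO, or 3.42, 4.80 and 3.62 CPM against 3.78, 4.77 and 4.65 CPM. Castor1 had a log2 fold change of 0.16 ± 0.25 (edgeR adjusted p = 0.999), the least precise of the 9. Castor2 encodes its close relative and had 20.3, 18.6 and 13.2 CPM in WT and 17.9, 14.1 and 13.5 CPM in BrmKO. Since Castor2 has the longer exons, the share of Castor1 in the pair rested on the scaling: it was 55.3% over the 6 libraries with length taken into account and 20.8% in raw reads. Between genotypes the length-scaled share was 52.3 ± 6.61% in WT and 58.2 ± 6.79% in BrmKO (SD, n = 3).

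The share of the member in its family was compared between genotypes for these 4 families. The exact permutation p, two-sided, was 0.9 for Rraga, 1 for Rragc, 0.3 for Sesn1 and 0.3 for Castor1, with Benjamini-Hochberg values over the 4 of 1, 1, 0.6 and 0.6. With 3 libraries against 3 the smallest p that this test can give is 0.1, so it could not have passed. The differences, BrmKO minus WT, were -0.283, 0.014, -1.95 and 5.94 percentage points. For Sesn1 the difference was -0.547 without BrmKO replicate 1, and for Castor1 it was 2.15 without WT replicate 1. The shares of Sesn1 and Castor1 were added after the data had been seen.

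**Figure D2:**
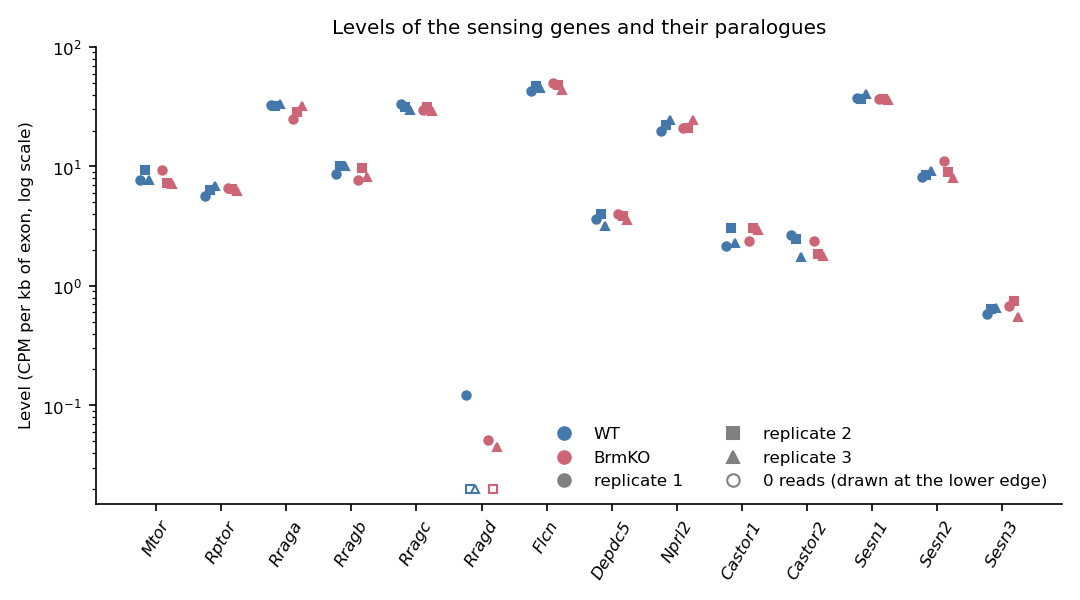
Level in CPM per kilobase of exon (vertical axis, log scale) of the 10 genes and the paralogues Rragb, Castor2, Sesn2 and Sesn3 in each WT and BrmKO library; open symbols at the lower edge are libraries with 0 reads. Rragc lies far above Rragd, Sesn1 above Sesn2 and Sesn3, and Castor1 beside Castor2.

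Ordered by level per kilobase of exon in WT, Flcn led at 45.0 ± 2.03 CPM per kb, followed by Sesn1 at 38.2 ± 1.94, Rraga at 32.8 ± 0.662, Rragc at 31.5 ± 1.65 and Nprl2 at 22.1 ± 2.27 (SD, n = 3). Mtor, Rptor, Depdc5, Castor1 and Rragd came after, the last at 0.0409 CPM per kb. Only Rraga and Rragc, neighbours in this order, overlapped in their WT libraries, and the same pair overlapped and traded places in BrmKO. The order depends on the length used. With the longest coding transcript in place of all exon bases, Rragc came second, level with Sesn1, Rptor at 12.8 CPM per kb moved above Mtor at 9.73, and Rraga and Nprl2 overlapped, while Flcn stayed first and Castor1 and Rragd last. Under both lengths Mtor and Rptor lay below Rraga, Rragc and Flcn.

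The precision of the comparison was set out next. The 95% interval of the fold, BrmKO over WT, was 0.846 to 1.09 for Sesn1, 0.839 to 1.09 for Rragc and 0.735 to 1.04 for Rraga. For the 8 tested members of at least 10 CPM the intervals together ran from 0.735 to 1.26, and that of Castor1 ran from 0.753 to 1.65. The intervals are per gene and not adjusted for the number of genes.

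**Figure D3:**
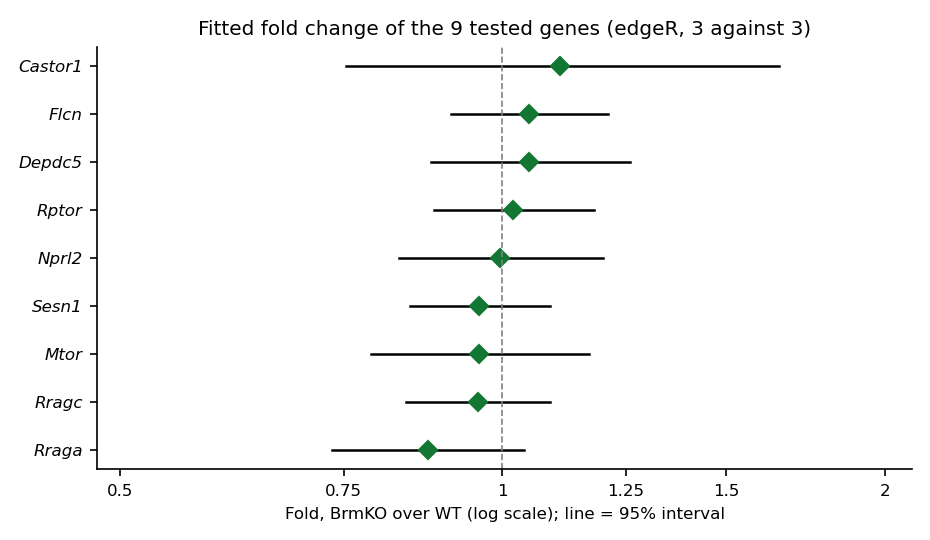
Fitted fold, BrmKO over WT (horizontal axis, log scale), of the 9 tested genes, with diamonds for the estimate and lines for the 95% interval (edgeR, 3 against 3 libraries). Every interval includes 1, that of Castor1 being the widest at 0.753 to 1.65.

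The rest of the pathway was read in 12 lists. They held 91 genes, of which Kics2 was not analysed here, and 89 of the other 90 were tested. Of these 0 were called higher and 0 lower (edgeR, against 0.14% of all genes), 3 had an unadjusted p under 0.05 against 5.85%, and DESeq2 and limma-voom called 0. The genotypes did not overlap for 9 of the 89, 10.1%, against 11.1% of all genes. The 9 include Gpnmb, which could pass the low-count filter only with its BrmKO reads. The median log2 fold change of the 89 was -0.01.

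Among the other subunits of mTORC1 and mTORC2, all 7 were tested, 3 lying above 0 and 4 below (median log2 fold change -0.01). Mapkap1, a subunit of mTORC2, was both the highest per kilobase and the one with the smallest p, averaging 102 ± 8.12 CPM in WT and 111 ± 11.2 in BrmKO (SD, n = 3). The 7 genes of Rag, Ragulator and SLC38A9 had a median of 0.00 and ranged from -0.18 to 0.05. Rragb lay lowest, at -0.18 ± 0.14. Lamtor5, a subunit of the Ragulator anchor on the lysosome, was highest in both libraries numbered 3, with 103 (WT) and 104 (BrmKO) CPM against 71.5 to 81.0 CPM in the other 4.

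The 4 further genes of GATOR1 and KICSTOR, the scaffold that holds GATOR1 at the lysosome, had a median log2 fold change of 0.02, with Kptn, the highest per kilobase, at 0.05 ± 0.13. In GATOR2, which carries the sensors' signal to GATOR1, the 5 subunits had a median of -0.05, and Sec13, also a coat and nuclear pore protein, averaged 214 ± 30.0 CPM in WT and 197 ± 21.9 CPM in BrmKO. The 6 further sensors had a median of 0.01, from Castor2 at -0.20 ± 0.19 to Sesn2 at 0.12 ± 0.14. Sar1b, a small GTPase of vesicle coats that can sense leucine, was the highest of them per kilobase. In the TSC and RHEB arm, through which growth factors reach mTORC1, 3 of 5 lay above 0, with Tsc1 at 0.19 ± 0.11 (edgeR adjusted p = 0.944) and Tsc2 at 0.08 ± 0.12. The 5 tested of 6 ubiquitin enzymes ranged from -0.12 for Stambpl1 to 0.07 for Rnf167.

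The 4 MiT/TFE factors, transcription factors that folliculin and the Rag GTPases hold in check, had a median log2 fold change of -0.18, which was -0.10 without BrmKO replicate 2. Mitf had 2.57, 2.92 and 2.64 CPM in WT and 2.14, 1.92 and 1.89 CPM in BrmKO, every BrmKO library below every WT library, but the difference of -0.45 ± 0.28 (log2) did not pass (edgeR adjusted p = 0.96). Tfec stood at 26.0 ± 2.95 and 20.8 ± 5.12 CPM (-0.32 ± 0.18, edgeR adjusted p = 0.948). Tfe3 was the most abundant in CPM, at 40.1 ± 4.16 and 42.4 ± 4.19, and it and Mitf were chosen after their values were seen. In the list of 18 lysosomal genes used as TFEB and TFE3 targets, 13 lay above 0 with a median of 0.05. The 13 include Gpnmb, with 0, 0 and 9 reads in WT and 15, 12 and 13 reads in BrmKO. It could pass the low-count filter only with its BrmKO reads, so its sign carries no weight. Of the 16 v-ATPase genes, 14 lay below 0 with a median of -0.06, and 0 were called in either list. Over all 15691 genes tested, 7651 lay above 0 and 8040 below. The counts of both lists were the same under the other scalings tried. With libraries left out they ran from 10 to 14 of the 18 and from 11 to 14 of the 16. Genes of a list share libraries, so such counts are not independent. Among v-ATPase genes Atp6v0d1 had the smallest p (0.23 ± 0.11, edgeR adjusted p = 0.871) and Atp6v1f the highest level per kilobase. Psap, which encodes the precursor of the saposins, had 559, 601 and 560 CPM in WT and 683, 709 and 638 CPM in BrmKO (0.24 ± 0.09, edgeR unadjusted p = 0.0193, adjusted p = 0.716).

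The list of 10 mTORC1 output genes, not all of them direct substrates, held the other pair of unadjusted p under 0.05. Lpin1, a phosphatidate phosphatase that mTORC1 keeps out of the nucleus, had 52.9, 57.8 and 54.6 CPM in WT and 46.7, 43.8 and 37.6 CPM in BrmKO. Its log2 fold change was -0.37 ± 0.11 (edgeR unadjusted p = 0.00785, adjusted p = 0.545). Ulk1, the kinase that starts autophagy and that mTORC1 inhibits, had 98.1, 114 and 98.0 CPM in WT and 140, 118 and 121 CPM in BrmKO. Its log2 fold change was 0.29 ± 0.10 (edgeR unadjusted p = 0.0194, adjusted p = 0.716), and it was chosen after its values were seen. Eif4e, the cap-binding factor that the 4E-BP proteins restrain, was the highest of the 10 per kilobase, at 278, 262 and 294 CPM in WT and 241, 243 and 257 CPM in BrmKO (-0.17 ± 0.08, edgeR adjusted p = 0.887). For these 3 of the 10 genes the libraries of the genotypes lay apart, without a call after adjustment. The share of genes lying apart was 11.1% over all genes and 10.1% over the 12 lists together.

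**Figure D4:**
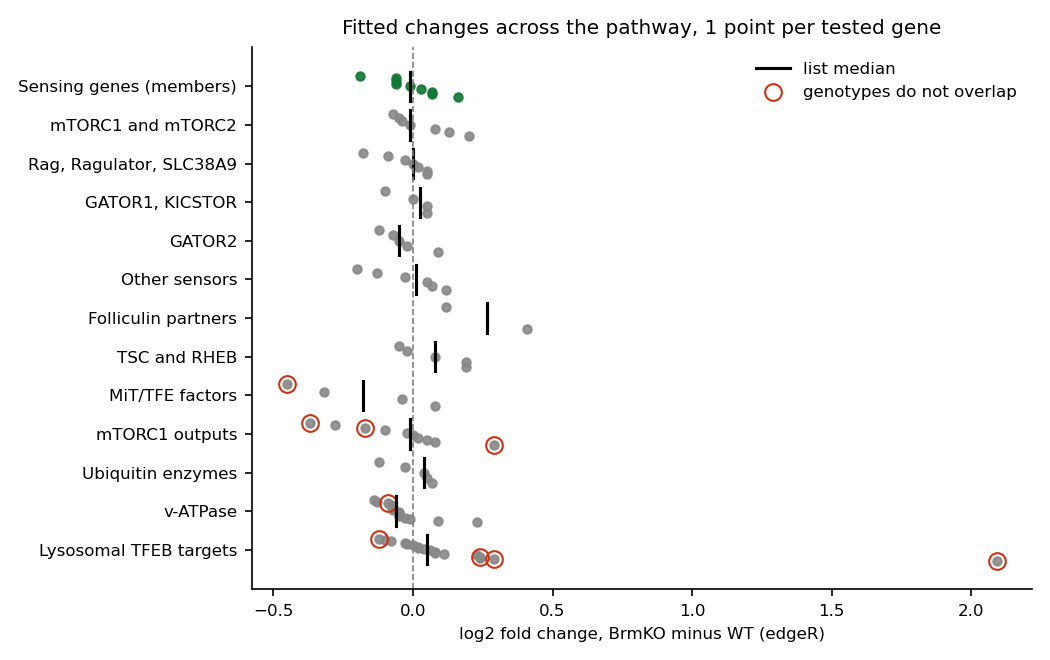
Fitted log2 fold change, BrmKO minus WT (horizontal axis), of every tested gene of the 10 members (green) and of the 12 lists (grey), with 1 point per gene, list medians as black bars and red rings where the CPM of the genotypes do not overlap. The members lie between -0.19 and 0.16 with no ring, and the point at 2.09 is Gpnmb, a gene under 0.6 CPM in every library.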

How the data were processed

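Whole-number read counts per Ensembl gene were deposited by the authors, 1 file per library and not normalised. Per the submitters' processing notes, STAR and HTSeq were used on GRCm38. The strand setting, the annotation and the versions used are not stated there. Per the labels' protocols, libraries were made with a SMART-Seq v4 kit, which amplifies full-length cDNA without molecular identifiers. The 5 rows that name no gene were left out of library sizes and tests. Reads outside genes were 5.79% to 9.29% of a library and ambiguous reads 6.23% to 6.47%. Reads without a unique alignment were 4.38% to 5.27% and unaligned reads 1.99% to 2.48%. Reads of low alignment quality were 0.00292% to 0.00368%.

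Counts were fitted with edgeR 4.0.16 (quasi-likelihood, robust, TMM factors, filterByExpr, 15691 genes kept), BrmKO against WT, with no covariate, on 3 libraries each, at an adjusted p threshold of 0.05. The design text counts 3 mice per genotype. CPM values use library sizes multiplied by the TMM factors, and CPM per kb divides by all exon bases of a gene in GENCODE M21 (GRCm38). DESeq2 1.42.0, limma-voom (limma 3.58.1), other scalings, no low-count filter, a replicate block and each library left out were alternatives. The test was tried on simulated counts first. Every pair of libraries differed by more than sampling noise (chi-square over degrees of freedom at least 14.2), so none was a repeat deposit.

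No member has a near-identical copy (minimap2 2.31, 95% identity over 50% of the longest coding transcript). Rragc shares 264 exon bases (7.9%) with 4930535I16Rik and Rptor 84 (0.624%) with Rptoros, both on the opposite strand, so reads there cannot be assigned. Members and lists were chosen with earlier results of these data known. Named from each list were the gene with the smallest p, the one highest per kilobase, and any past the threshold; 1 gene that this rule names is not reported here. Mlst8, Nprl3, Sesn2 and Sesn3 were named as partners or relatives of members, and Gpnmb after its values were seen.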

Additional observations from a re-analysis of the deposited data

How the results depend on the processing

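Across 13 alternatives for each of the 9 tested members, 117 fits in all, 0 passed, and the lowest adjusted p was 0.468 (Rraga, without both libraries numbered 3, an alternative chosen after seeing the data). The sign of the log2 fold change held in every fit for 5 members and changed in at least 1 for Mtor, Rptor, Depdc5 and Nprl2, whose main values lie within 0.07 of 0. The count of pathway genes past the threshold was 0 in every fit. With 1 library left out, the difference in share, in percentage points, ran from -3.12 to -0.547 for Sesn1 and from 2.15 to 9.85 for Castor1, and changed sign for Rraga (-1.66 to 0.863) and Rragc (-0.109 to 0.0757). The level of the Castor1 share itself depends on length, and several list medians near 0 changed sign with a library left out. The count over all genes, 22, was 58 with no low-count filter, 141 with DESeq2, and 6 to 36 with 1 library left out, lowest without WT replicate 2 and highest without WT replicate 3. The cause was not tested. With the replicate block it was 25, with 0 members, and the adjusted p of Rraga was 0.575. The replicate numbers did not pair the libraries throughout. Same-numbered libraries correlated in their deviations from the group means at 0.0518, 0.00775 and 0.194, the last for those numbered 3. That value was the highest of any WT and BrmKO pair. WT replicate 2 correlated more with BrmKO replicate 1 (0.168) than with its own number. What the libraries numbered 3 share was not tested. Depth limits Rragd, at 0 reads in 3 libraries, and Castor1, at 103 to 160 reads.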
